A study of Mus musculus with 12 samples.

Results

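Synaptic adhesion molecules hold the presynaptic and postsynaptic membranes together and help to specify which kind of synapse forms. Neurexins sit on the axon terminal and bind partners on the facing dendrite across the cleft, among them the neuroligins and the leucine-rich repeat transmembrane (LRRTM) proteins. Variants in several of these genes are linked to autism, a frequent diagnosis in people with fragile X syndrome. That syndrome is mainly caused by silencing of *FMR1*, which leaves its protein reduced or absent.

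The genes described were 9 listed autism-linked members of this system, taken from a list of names whose rule uses no measured value: the neurexins *Nrxn2* and *Nrxn3*, the neurexin-related *Cntnap2*, the neuroligins *Nlgn1*, *Nlgn2* and *Nlgn3*, the LRRTM genes *Lrrtm1* and *Lrrtm2*, and *Il1rapl1*. All 9 were among the 55421 genes listed in the files and among the 22592 that had more than 20 reads in total over the libraries and were tested. Their levels were measured by poly(A) RNA-seq of hippocampus from 12 mice of C57B/L6 background, 3 in each of 4 groups. WT-Veh and WT-Nut3 were wild-type mice and KO-Veh and KO-Nut3 were *Fmr1* knockout mice, a constitutive knockout that models fragile X syndrome, and all were males by their genotype. At 2 months of age the mice were injected intraperitoneally with vehicle (Veh) or with Nutlin-3 (Nut3), a small molecule that blocks the ubiquitin ligase MDM2, and all tissue was taken at 6 months. Libraries are named by group and by the RH number of their label, from RH1 to RH16. For WT-Veh values are listed in the order RH2, RH5, RH15, and for WT-Nut3 in the order RH1, RH9, RH14. For KO-Veh the order is RH7, RH10, RH16, and for KO-Nut3 it is RH6, RH8, RH13. The reads assigned to genes numbered between 17150820 and 19562517 in the WT-Veh libraries and between 17949695 and 20040482 in the WT-Nut3 libraries. In the knockout they numbered between 17569438 and 19426101 (KO-Veh) and between 17221891 and 18234575 (KO-Nut3).

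*Fmr1* itself served as the check of the labels. It stood at 79.5, 75.3 and 77.7 CPM (read counts scaled to a common normalized library size) in WT-Veh and at 75.2, 74.0 and 78.3 CPM in WT-Nut3. It stood at 32.7, 32.5 and 37.3 CPM in KO-Veh and at 30.6, 28.5 and 35.7 CPM in KO-Nut3. Every knockout library lay below every wild-type library, and the log2 fold change of all knockout against all wild-type libraries was -1.22 ± 0.055 (SE, n = 6 and 6, adjusted *P* = 1.71e-08). Reads on the gene were therefore reduced but not gone in the knockout.

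The tissue was checked against its markers, and several libraries stood apart in one list or another. The 6 markers of CA pyramidal neurons, the excitatory cells of the hippocampal layers, of which *Mpped1* was the most abundant, summed to 593 CPM in KO-Nut3 RH6 and to between 807 and 943 CPM in the other 11 libraries. Of the 6 markers, 5, all but *Wfs1*, were lowest in KO-Nut3 RH6. The 6 markers of thalamus, which lies beside the hippocampus, summed to 121 CPM in that library and to between 58.4 and 84.7 CPM in the others. Of the 6, 3 were highest there, *Lef1*, *Rgs16* and *Tcf7l2*. *Tcf7l2* stood at 32.7 CPM there and at 4.75 to 7.33 CPM in the others. *Prkcd*, the most abundant of the 6, stood at 40.6 CPM there and was highest in KO-Veh RH16 at 43.2 CPM.

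In KO-Nut3 RH6 the 6 pan-neuronal markers, led by *Snap25*, summed to 4562 CPM against 4857 to 5323 CPM in the other libraries. Of these markers *Map2*, *Rbfox3* and *Syt1* were lowest in that library and *Tubb3* was highest, with *Snap25* and *Nefl* at neither end. The 7 interneuron markers, led by *Gad1*, summed there to 902 CPM against 734 to 821 CPM. Their list was split too, with *Gad1*, *Gad2*, *Pvalb* and *Slc32a1* at the highest and *Sst*, *Vip* and *Npy* at the lowest level of the 12 libraries. All 6 pan-neuronal, all 6 CA pyramidal and all 5 dentate granule markers had reads in every library. The sums of the other lists ran from 283 to 413 CPM for 5 dentate granule markers (led by *Stxbp6*, lowest in WT-Veh RH5), from 1712 to 2215 CPM for 6 astrocyte markers (*Aldoc*) and from 3659 to 6252 CPM for 7 oligodendrocyte markers (*Mbp*), with KO-Nut3 RH6 the highest in the last. They ran from 186 CPM in KO-Nut3 RH6 to 246 CPM for 5 microglia markers (*Csf1r*) and from 48.2 to 191 CPM for 7 markers of meningeal fibroblasts (*Dcn*), where KO-Nut3 RH8 was highest and WT-Veh RH5 followed at 153 CPM, with the other 10 libraries at 91.7 CPM or less. WT-Veh RH5 was also the highest library for *Nrxn2*, *Nlgn1* and *Nlgn2*, and the part its makeup had in this was not tested.

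Markers of choroid plexus epithelium, the tissue that secretes cerebrospinal fluid and that lies against the hippocampus, divided the libraries. Its 10 markers, of which *Ttr* was by far the most abundant, summed to 4703 CPM in WT-Nut3 RH9, 3504 in KO-Nut3 RH6, 380.0 in KO-Nut3 RH8 and 5038 in KO-Nut3 RH13. In the remaining libraries they summed to between 32.3 and 57.3 CPM, and *Kcnj13* was at 0 reads in at least 1 of them. The high sums were thus in every KO-Nut3 library and in WT-Nut3 RH9, and in no vehicle library. In KO-Nut3 against KO-Veh these sums divide the libraries exactly as treatment does. *Ttr*, *Slc4a5* and *Folr1* passed the test in KO-Nut3 against KO-Veh, and *Wfs1* passed in KO-Veh against WT-Veh with a log2 fold change of -0.44 ± 0.063 (SE, n = 3 and 3, adjusted *P* = 0.0478). No other marker passed in any comparison of all libraries. Without KO-Nut3 RH6, *Wfs1* (log2 fold change -0.51, adjusted *P* = 0.0189) and the astrocyte gene *Aqp4* (0.26, adjusted *P* = 0.0320) passed for genotype, and *Aqp1*, *Sostdc1* and *Clic6* joined the choroid plexus genes that passed in KO-Nut3 against KO-Veh. In bulk tissue, fewer cells of a type and less RNA per cell cannot be told apart. The part that tissue makeup had in the values of the adhesion genes was not tested, and many of the values below are given with and without KO-Nut3 RH6.

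**Figure D1:**
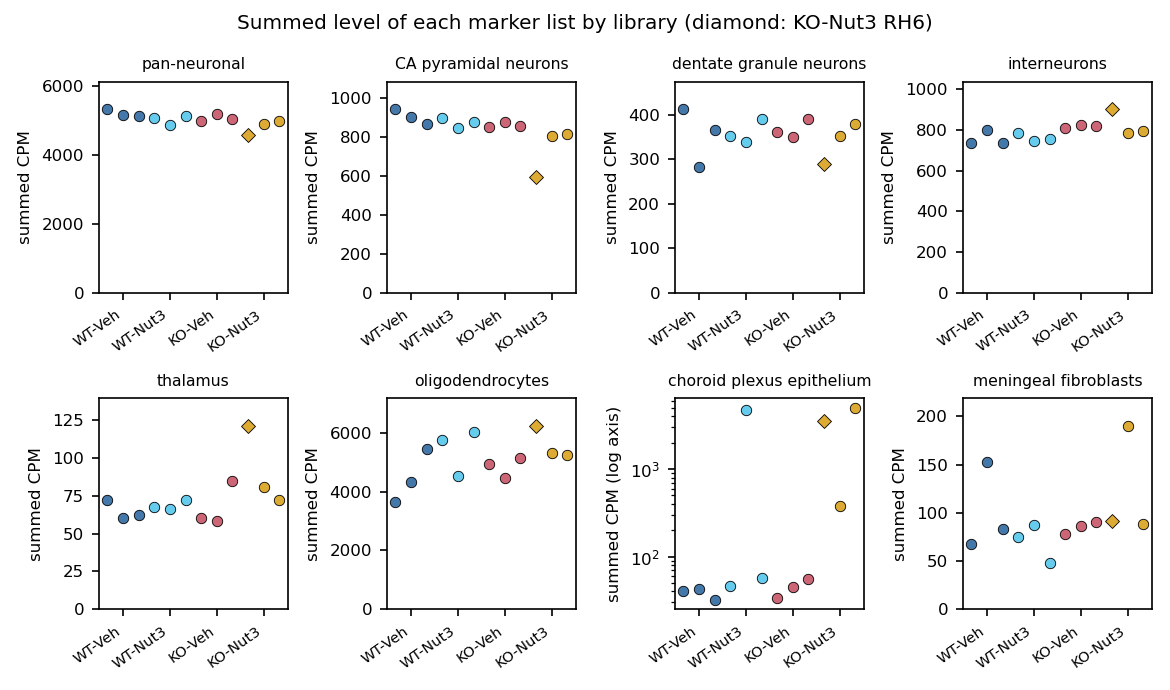
Summed CPM of 8 marker lists (vertical axes, with a log axis for choroid plexus) in each of the 12 libraries, in columns by group and coloured by group; every point is 1 library and the diamond is KO-Nut3 RH6. KO-Nut3 RH6 has the lowest CA pyramidal and pan-neuronal sums and the highest interneuron and thalamus sums, and 4 libraries have choroid plexus sums of 380.0 CPM or more.

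The genes differ widely in how they are built, by the GENCODE M21 annotation of GRCm38. *Cntnap2* spans chr6:45059357-47304213 on the forward strand (2245 kb), *Nrxn3* chr12:88722876-90334935 on the forward strand (1612 kb), *Il1rapl1* chrX:86740870-88115645 on the reverse strand (1375 kb) and *Nlgn1* chr3:25426215-26332460 on the reverse strand (906 kb). These 4 exceed 900 kb, as do 0.476% of the 16191 protein-coding genes tested, whose median span was 24.0 kb. Exons made up only 0.457% of the span of *Cntnap2* and 1.48% of that of *Nlgn1*, against 39.5% for the compact *Nlgn2* at chr11:69823122-69837784 on the reverse strand. *Nrxn2* lies at chr19:6418731-6544169 on the forward strand, and *Nlgn3* at chrX:101299168-101325963 on the forward strand, so that 2 of the 9 are X-linked.

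The LRRTM genes are small and sit inside larger ones. *Lrrtm1* at chr6:77242689-77257791 (forward strand) lies within the alpha-catenin gene *Ctnna2*, and *Lrrtm2* at chr18:35209003-35215024 (reverse strand) lies within *Ctnna1*, in each case on the opposite strand. The counts did not use strand, and reads falling on exons of more than 1 gene were left uncounted. For genes that overlap on opposite strands this touched *Nrxn2* most: counting the strands separately and adding them gave 121% of its unstranded reads, where *Gm14964* and *Slc22a12* overlap it on the other strand, against 109% for *Nlgn1*, 108% for *Nrxn3*, 104% for *Lrrtm2* and 100% for the other 5. *Nlgn3* shares 3823 of its 9271 exonic bases with *Gm21986* on the same strand, which the strand counts do not resolve, and the split of its reads is uncertain.

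Promoter windows, 250 bases before to 50 after an annotated start, were held for 6 of the 9 genes in the RefSeq table (GRCm38.p6). *Nrxn2*, *Nlgn3* and *Lrrtm2* had none there. The 6 genes had 10 starts, with 3 for *Nrxn3* and 2 each for *Nlgn1* and *Cntnap2*. The windows of the genes with the highest and the lowest level per exon length below, *Nlgn2* (chr11:69837735-69838034, reverse strand) and *Il1rapl1* (chrX:88115899-88116198, reverse strand), are shown with CG dinucleotides, the sites of DNA methylation, in capitals.

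*Nlgn2*: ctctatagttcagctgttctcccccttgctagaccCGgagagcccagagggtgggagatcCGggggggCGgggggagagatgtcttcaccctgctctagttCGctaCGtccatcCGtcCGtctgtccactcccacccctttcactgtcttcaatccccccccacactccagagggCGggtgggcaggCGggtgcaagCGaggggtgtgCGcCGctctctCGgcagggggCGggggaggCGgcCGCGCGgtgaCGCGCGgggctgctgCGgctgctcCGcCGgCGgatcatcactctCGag

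*Il1rapl1*: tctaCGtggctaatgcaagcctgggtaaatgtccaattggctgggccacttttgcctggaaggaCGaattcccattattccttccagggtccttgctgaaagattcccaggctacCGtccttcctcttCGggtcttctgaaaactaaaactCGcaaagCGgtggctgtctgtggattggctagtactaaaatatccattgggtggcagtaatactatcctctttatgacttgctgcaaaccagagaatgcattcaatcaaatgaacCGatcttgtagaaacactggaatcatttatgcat

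The *Nlgn2* window held 26 CG dinucleotides at a GC content of 68.7%, and the *Il1rapl1* window held 7 at 45%. The median over all 32851 windows in the table was 7 CG dinucleotides and 52.7% GC, so *Nlgn2* stood well above it and *Il1rapl1* was at or under it. The GC box GGGCGG, searched on both strands, was present in 4 of the 10 windows and in 35.7% of all windows. The TATA letters TATAAA (13.6% of all windows) and the E-box CACGTG (7.15%), also searched on both strands, were in 0 of the 10.

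Per kb of exon not shared with another gene, *Nlgn2*, the neuroligin of inhibitory synapses, had the highest level, with 55.7 ± 3.82 CPM per kb (SD, n = 12). *Lrrtm1*, a postsynaptic organizer of excitatory synapses, followed at 34.4 ± 3.34 and *Nrxn2* at 27.0 ± 1.57 CPM per kb. In the middle stood *Nrxn3* at 16.1 ± 0.771, *Cntnap2* at 13.1 ± 0.879, *Lrrtm2* at 10.7 ± 1.002 and *Nlgn3* at 9.73 ± 0.927 CPM per kb. *Nlgn1*, the neuroligin of excitatory synapses, came to 6.46 ± 0.465 and *Il1rapl1* to 1.51 ± 0.0982 CPM per kb. The range from top to bottom was wide, but 3 pairs of neighbours in this order overlapped over the libraries. *Lrrtm1* was above *Nrxn2* in 11 of 12 libraries, *Nrxn3* above *Cntnap2* in 11 of 12, and *Lrrtm2* above *Nlgn3* in 8 of 12. With all exonic bases as the length, *Nlgn3* came to 5.72 CPM per kb and *Nlgn1* to 5.87, which turns their order.

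**Figure D2:**
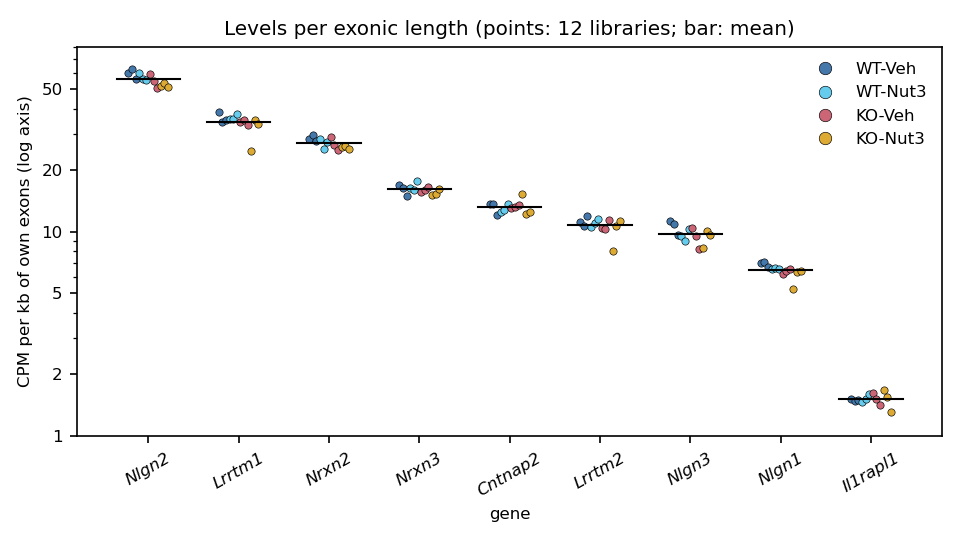
CPM per kb of exon not shared with another gene (vertical log axis) for the 9 genes in order of their mean; points are the 12 libraries coloured by group and the bar is the mean. The levels run from a mean of 55.7 for Nlgn2 down to 1.51 for Il1rapl1. Lrrtm1 and Nrxn2, Nrxn3 and Cntnap2, and Lrrtm2 and Nlgn3 overlap over the libraries, and the other neighbours do not.

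The SD of log2 CPM over the 12 libraries had a median of 0.0986 over the 9 genes and of 0.142 over the 15346 genes with a mean of at least 1 CPM, which were not matched for level. In the summed CPM of the 9 genes, WT-Veh gave 1397, 1409 and 1310.1 CPM and WT-Nut3 gave 1355, 1294 and 1358 CPM, while KO-Veh gave 1349, 1297 and 1261 CPM and KO-Nut3 gave 1221, 1275 and 1256 CPM. KO-Nut3 lay below both wild-type groups without overlap, and KO-Veh overlapped both. In the means over the 12 libraries, though not in every library, *Nrxn2* and *Nlgn2* together exceed the other 7 genes in this sum. The sum is therefore not an average over the genes.

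The first question was whether loss of *Fmr1* was accompanied by a different level of any of these genes, with vehicle (KO-Veh against WT-Veh) and with Nutlin-3 (KO-Nut3 against WT-Nut3). None of the 9 passed an adjusted *P*-value under 0.05 in the first comparison, in which 0.0177% of all genes tested passed, nor in the second, in which 0.00443% passed. At an unadjusted *P*-value under 0.05 there were again 0 of 9 in both, beside 7.20% and 4.87% of all genes. In fits with a term for the number block, which sets RH1 to RH8 against RH9 and above, there were 0 (5.65% of all genes) and 1, *Nlgn2* (4.54%). Over all 12 libraries with treatment as a term, 0 of 9 passed (0.00443% of all genes) and 2 of 9, *Nlgn1* and *Nlgn2*, had an unadjusted *P*-value under 0.05 (8.16% of all genes), joined by *Nrxn2* with the number block as a term (9.06%). Groups of 3 that did not overlap were seen for 1 of the 9 with vehicle (12.4% of all genes) and for 3 of the 9 with Nutlin-3 (10.7%), each time with the knockout below. These were *Nlgn1* in the first, and *Nlgn1*, *Nlgn2* and *Lrrtm1* in the second, where the same 3 did not overlap without KO-Nut3 RH6 (19.5% of all genes). DESeq2 also called 0 of 9 in each comparison, beside 22 of the 22592 genes tested with vehicle, 7 with Nutlin-3 and 43 over all 12 libraries. It did so too in the comparisons below, beside 245 genes in KO-Nut3 against KO-Veh, 0 in WT-Nut3 against WT-Veh, 79 for treatment and 1 for the interaction.

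The second question was whether Nutlin-3, given at 2 months of age, was accompanied by a different level in knockout (KO-Nut3 against KO-Veh) or wild-type mice (WT-Nut3 against WT-Veh). Again 0 of 9 passed, beside 0.199% of all genes in the knockout and 0% in the wild type, and 0 of 9 had an unadjusted *P*-value under 0.05, beside 7.60% and 3.17%. Non-overlapping groups numbered 0 of 9 in the knockout (13.3% of all genes), or 1, *Cntnap2* with KO-Nut3 below, without KO-Nut3 RH6 (21.1%), and 1 of 9 in the wild type (7.52%). Over all 12 libraries with genotype as a term the counts were 0 of 9 at the adjusted threshold (0% of all genes) and 0 of 9 unadjusted (7.29%). The interaction of genotype and treatment gave 0 of 9 adjusted (0%) and 0 of 9 unadjusted (4.17%). With 0 genes called of all those tested in 3 of these comparisons, a count of 0 says little about these genes in particular. The 95% intervals of their log2 fold changes reached from -0.35 to 0.25 in KO-Veh against WT-Veh, from -0.48 to 0.25 in KO-Nut3 against WT-Nut3, from -0.38 to 0.27 in KO-Nut3 against KO-Veh and from -0.30 to 0.27 in WT-Nut3 against WT-Veh. Those of the interaction reached from -0.44 (*Lrrtm1*) to 0.43 (*Nlgn3*), and without KO-Nut3 RH6 from -0.46 (*Il1rapl1*) to 0.48 (*Nlgn3*), with -0.18 as the lower limit of *Lrrtm1*.

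**Figure D3:**
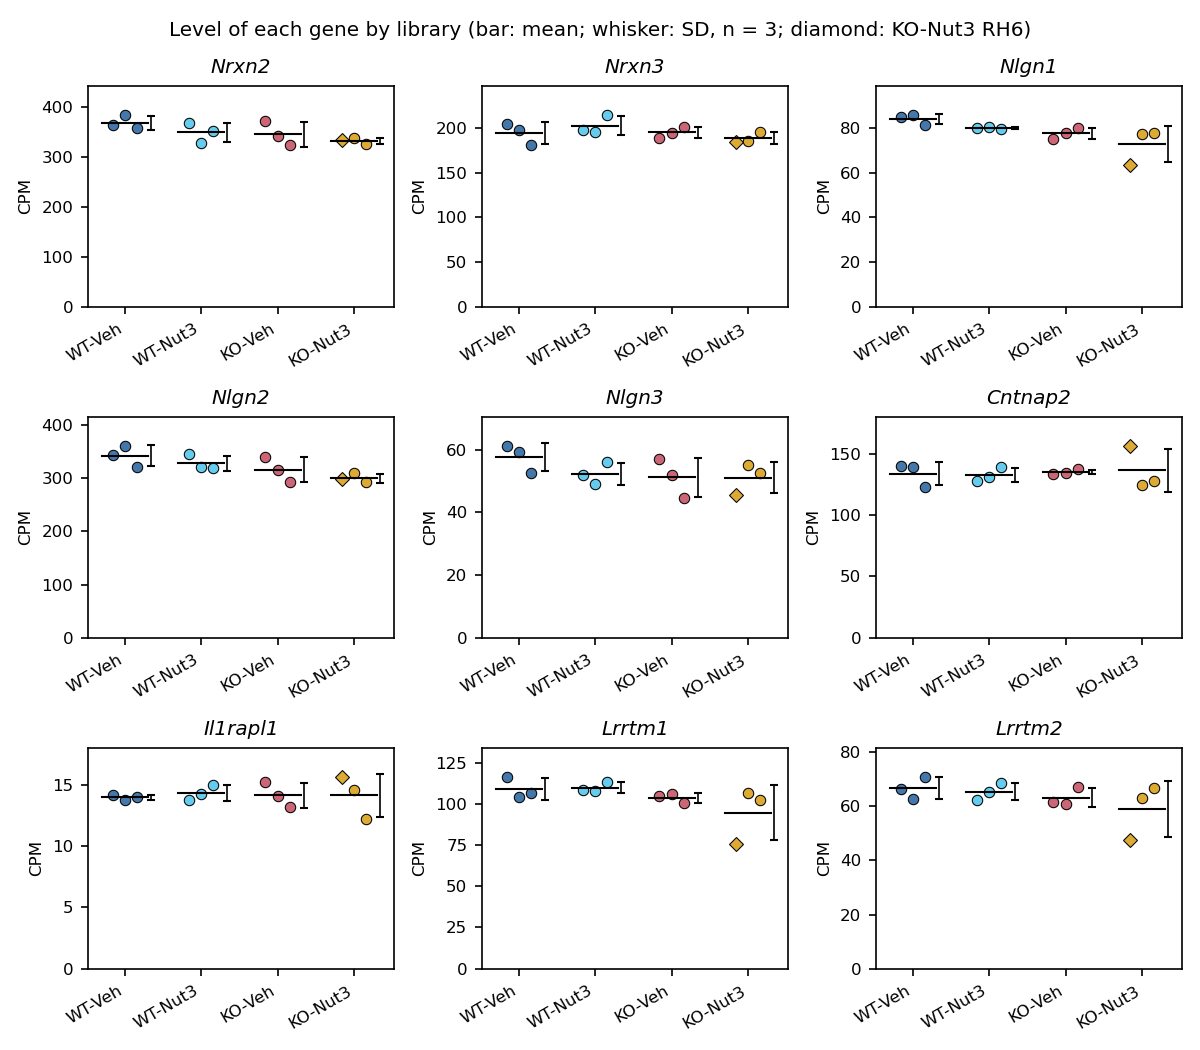
CPM (vertical axes from 0) of each of the 9 genes in the 12 libraries, by group; every point is 1 library, the bar is the group mean, the whisker is the SD (n = 3) and the diamond is KO-Nut3 RH6. Groups overlap for most genes, and KO-Nut3 RH6 lies below the other 11 libraries for Nlgn1, Lrrtm1 and Lrrtm2 and above them for Cntnap2 and Il1rapl1.

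On the presynaptic side, *Nrxn2*, a neurexin that acts as a hub for many postsynaptic ligands, stood at 364.6, 384.6 and 357.8 CPM in WT-Veh and 367.2, 328.9 and 352.6 CPM in WT-Nut3. In the knockout it stood at 373.1, 341.4 and 323.3 CPM with vehicle and 333.5, 337.5 and 325.9 CPM with Nutlin-3. KO-Veh RH7 was high among the knockout libraries, and each pair of groups overlapped except KO-Nut3 and WT-Veh, where the knockout was below, as for 3 of the 9 genes (*Nrxn2*, *Nlgn1* and *Nlgn2*) and beside 15% of all genes that did not overlap. The log2 fold change of knockout against wild type over all 12 libraries was -0.083 (95% interval -0.17 to 0.0075, adjusted *P* = 0.654), and that of Nutlin-3 against vehicle was -0.068 (-0.16 to 0.023, adjusted *P* = 0.811), with estimates of -0.087 to -0.044 when 1 library was left out.

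*Nrxn3*, another neurexin gene with many splice forms, gave 204.9, 197.7 and 181.4 CPM in WT-Veh, 198.3, 195.2 and 214.9 in WT-Nut3, 188.9, 195.0 and 201.7 in KO-Veh and 184.6, 186.0 and 196.0 in KO-Nut3. The highest and the lowest of the 12 values were both from wild-type mice. Its log2 fold change was 0.0044 ± 0.059 (SE, n = 3 and 3, adjusted *P* = 0.997) in KO-Veh against WT-Veh and -0.11 ± 0.060 (SE, n = 3 and 3, adjusted *P* = 0.928) in KO-Nut3 against WT-Nut3. The latter was -0.14 to -0.065 without 1 library. The interaction over all 12 libraries was -0.11 ± 0.084 (SE, unadjusted *P* = 0.224), or -0.16 to -0.057 without 1 library, and did not pass.

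*Cntnap2*, which encodes a neurexin-related protein that gathers potassium channels along the axon, stood at 139.9, 139.3 and 123.0 CPM in WT-Veh, 128.1, 131.1 and 139.0 in WT-Nut3 and 134.0, 134.3 and 137.5 in KO-Veh. In KO-Nut3 it stood at 156.7, 124.8 and 128.2 CPM, where the first value, from RH6, was the highest of all 12. All groups overlapped. Knockout against wild type gave a log2 fold change of 0.027 (-0.088 to 0.14, 95% interval) with KO-Nut3 RH6 and -0.026 (-0.11 to 0.061) without it, with adjusted *P*-values of 0.934 and 0.913.

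Among the postsynaptic partners, the neuroligins *Nlgn2* and *Nlgn1* gave the differences between genotypes nearest to the threshold in the fit over all 12 libraries. *Nlgn2*, which organizes inhibitory synapses, stood at 345.1, 361.6 and 322.5 CPM in WT-Veh and 345.2, 322.1 and 319.1 CPM in WT-Nut3. It stood at 339.9, 315.5 and 292.7 CPM in KO-Veh and 298.9, 309.8 and 293.3 CPM in KO-Nut3. KO-Nut3 did not overlap either wild-type group, whereas KO-Veh RH7 was as high as wild-type libraries. The log2 fold change of knockout against wild type was -0.12 ± 0.044 over all 12 libraries, a change of -8.22% in level, with an unadjusted *P* of 0.0129 that the adjustment over all genes took to 0.472. Without KO-Nut3 RH6 it was -0.12 ± 0.044 (adjusted *P* = 0.424).

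*Nlgn1*, the postsynaptic partner of neurexins at excitatory synapses, had its highest values in WT-Veh. Its values were 85.0, 86.1 and 81.7 CPM in WT-Veh, 80.1, 80.6 and 79.5 in WT-Nut3, 75.2, 77.9 and 80.3 in KO-Veh and 63.7, 77.5 and 78.1 in KO-Nut3. WT-Veh was above each other group without overlap and KO-Nut3 was below WT-Nut3 without overlap, while KO-Veh overlapped both WT-Nut3 and KO-Nut3. Knockout against wild type gave a log2 fold change of -0.12 ± 0.048 (SE, n = 6 and 6, unadjusted *P* = 0.0201, adjusted *P* = 0.515). Without KO-Nut3 RH6, the lowest library, it was -0.085 ± 0.034 (SE, n = 5 and 6, unadjusted *P* = 0.0254, adjusted *P* = 0.484). Nutlin-3 against vehicle gave -0.082 ± 0.048 (SE, n = 6 and 6, adjusted *P* = 0.784) with that library and -0.040 ± 0.034 (SE, n = 5 and 6, adjusted *P* = 0.972) without it. In KO-Nut3 against WT-Nut3 the log2 fold change was -0.14 with that library and -0.043 without it. In KO-Nut3 against KO-Veh it was -0.093 with that library and -0.00085 without it.

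*Nlgn3*, an X-linked neuroligin found at both kinds of synapse, stood at 61.2, 59.1 and 52.5 CPM in WT-Veh, 51.7, 49.1 and 56.1 in WT-Nut3, 56.8, 51.9 and 44.6 in KO-Veh and 45.4, 54.9 and 52.7 in KO-Nut3. Every pair of groups overlapped. Its log2 fold change in KO-Veh against WT-Veh was -0.17 ± 0.086 (SE, n = 3 and 3, adjusted *P* = 0.727), and was -0.10 in the fit with a term for the number block and -0.24 to -0.076 without 1 library. With Nutlin-3 it was -0.043 ± 0.090 (SE, n = 3 and 3, adjusted *P* = 0.966). Without KO-Nut3 RH6 the latter was 0.039 ± 0.079 (SE, n = 2 and 3, adjusted *P* = 0.999). The interaction of 0.13 ± 0.14 (SE, unadjusted *P* = 0.342) did not pass, and was 0.079 with the number block as a term and 0.047 to 0.22 without 1 library.

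*Lrrtm1* and *Lrrtm2*, neurexin ligands of excitatory synapses, had their lowest value in the same library. *Lrrtm1* stood at 116.4, 104.4 and 106.3 CPM in WT-Veh, 108.1, 108.0 and 113.4 in WT-Nut3, 104.5, 106.0 and 100.2 in KO-Veh and 75.3, 106.5 and 102.3 in KO-Nut3. *Lrrtm2* stood at 66.3, 62.8 and 70.9 CPM in WT-Veh, 62.5, 65.2 and 68.6 in WT-Nut3, 61.5, 60.8 and 67.1 in KO-Veh and 47.4, 63.0 and 66.9 in KO-Nut3. In both genes KO-Nut3 RH6 was far below every other library, the one with the low CA pyramidal sum, and the other libraries of KO-Nut3 lay within the range of the remaining groups. In KO-Nut3 against WT-Nut3 the log2 fold change of *Lrrtm1* was -0.22 ± 0.12 (SE, n = 3 and 3, adjusted *P* = 0.928) with that library and -0.075 ± 0.055 (SE, n = 2 and 3, adjusted *P* = 0.999) without it. The log2 fold change of *Lrrtm2* was -0.15 ± 0.12 (SE, n = 3 and 3, adjusted *P* = 0.928) with it and -0.012 ± 0.069 (SE, n = 2 and 3, adjusted *P* = 0.999) without it. Over the genotypes the alpha-catenin genes that surround them, both highest in KO-Nut3 RH6, had log2 fold changes of 0.081 ± 0.039 for *Ctnna2* and 0.054 ± 0.073 for *Ctnna1* (SE, n = 6 and 6), and of 0.064 and -0.0016 without that library. Neither passed.

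*Il1rapl1*, an X-linked receptor-like gene that organizes excitatory synapses through the phosphatase PTPRD, was the least abundant of the 9, with 222 to 294 reads per library. It stood at 14.15, 13.76 and 14.01 CPM in WT-Veh, 13.74, 14.21 and 14.97 in WT-Nut3, 15.18, 14.09 and 13.16 in KO-Veh and 15.64, 14.55 and 12.19 in KO-Nut3. The highest and the lowest value were both in KO-Nut3, and all groups overlapped. Knockout against wild type gave a log2 fold change of -0.00013 (-0.16 to 0.16, 95% interval, adjusted *P* = 0.9999), and Nutlin-3 against vehicle gave 0.016 (-0.14 to 0.17, adjusted *P* = 0.977). Without KO-Nut3 RH6 these were -0.036 and -0.016.

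Over the 12 libraries, 8 of the 9 genes had a log2 fold change below 0 in knockout against wild type, with a median of -0.10, and the median of all genes tested was 0.0057. Without KO-Nut3 RH6 all 9 were below 0, with a median of -0.076. The comparisons with vehicle and with Nutlin-3 share no library, and in them 7 of the 9 genes had the same direction (6 below 0 in both), beside 54.5% of all genes (27.2% below 0 in both). Without KO-Nut3 RH6 the same direction was seen for 5 of the 9, all below 0, beside 57.5% of all genes (29.2% below 0 in both). In Nutlin-3 against vehicle 7 of the 9 were below 0 with a median of -0.061, and all genes had a median of -0.00015. Without KO-Nut3 RH6 these were 6 of the 9 and -0.040, with *Nrxn3*, *Lrrtm1* and *Lrrtm2* above 0. The 95% intervals of the 9 genes reached from -0.29 (*Lrrtm1*) to 0.16 (*Il1rapl1*) for genotype and from -0.22 (*Nlgn3*) to 0.17 (*Il1rapl1*) for treatment. Without KO-Nut3 RH6 they reached from -0.22 (*Nlgn3*) to 0.13 (*Il1rapl1*) for genotype, with -0.16 as the lower limit of *Lrrtm1*, and from -0.19 (*Nlgn3*) to 0.15 (*Il1rapl1*) for treatment.

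The marker lists were taken through the same fits over all libraries, and are given here as medians of log2 fold change with the values without KO-Nut3 RH6 in parentheses. For genotype, markers were below 0 in 6 of 6 for pan-neuronal genes, median -0.058 (6 of 6, -0.044), in 6 of 6 for CA pyramidal neurons, -0.15 (4 of 6, -0.059), in 4 of 5 for dentate granule neurons, -0.051 (2 of 5, 0.012), and in 3 of 5 for microglia, -0.076 (4 of 5, -0.030). They were above 0 in 5 of 7 for interneurons, 0.097 (5 of 7, 0.089), in 4 of 6 for astrocytes, 0.090 (4 of 6, 0.11), in 7 of 7 for oligodendrocytes, 0.099 (7 of 7, 0.024), and in 5 of 6 for thalamus, 0.27 (4 of 6, 0.040). All 10 choroid plexus and all 7 meningeal markers were above 0, at medians of 0.77 (0.66) and 0.35 (0.31). By treatment group the meningeal markers went both ways. In KO-Veh against WT-Veh 6 of the 7 were below 0 (median -0.59), and in KO-Nut3 against WT-Nut3 all 7 were above 0 (1.31). For treatment, markers were below 0 in 5 of 6 for pan-neuronal genes, median -0.047 (5 of 6, -0.033), in 6 of 6 for CA pyramidal neurons, -0.081 (4 of 6, -0.047), in 5 of 5 for dentate granule neurons, -0.036 (2 of 5, 0.031), and in 5 of 5 for microglia, -0.090 (5 of 5, -0.068). They were above 0 in 4 of 7 for interneurons, 0.031 (2 of 7, -0.013), in 3 of 6 for astrocytes, -0.022 (2 of 6, -0.081), in 7 of 7 for oligodendrocytes, 0.23 (7 of 7, 0.19), in 6 of 6 for thalamus, 0.17 (5 of 6, 0.069), in 10 of 10 for choroid plexus, 4.56 (10 of 10, 4.47), and in 6 of 7 for meninges, 0.25 (6 of 7, 0.24). The part these had in the values of the 9 genes was not tested.

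Between the 3 knockout and 3 wild-type libraries with numbers up to RH8, the mean log2 CPM differed by -0.15 for *Nlgn2*, -0.22 for *Nlgn1* and -0.22 for *Lrrtm1*. This set holds KO-Nut3 RH6, without which the differences were -0.11, -0.13 and -0.054. Between the 3 and 3 from RH9 on, which had more reads mapped to several places (3.33% to 3.55% against 3.07% to 3.22%), the differences were -0.097, -0.033 and -0.087. Treatments are not balanced between the genotypes within either set.

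**Figure D4:**
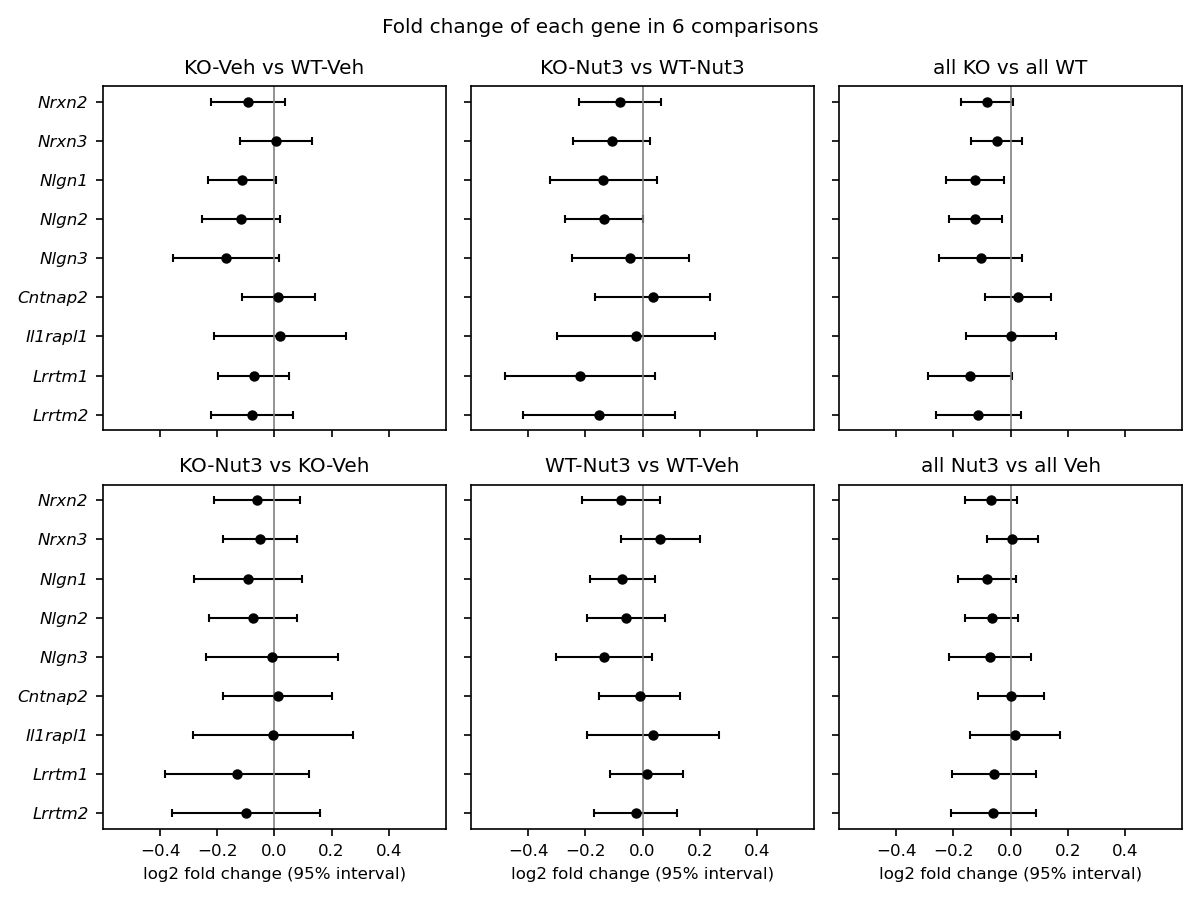
Log2 fold change (horizontal axes) of the 9 genes in 6 comparisons fitted with edgeR, the upper row for genotype and the lower for treatment; points are estimates and whiskers 95% intervals from 3 against 3 libraries (left and middle) or 6 against 6 (right). Most intervals include 0, those of Nlgn1 and Nlgn2 over all 12 libraries for genotype do not, and no gene passed after adjustment over all genes tested.

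The genes also varied together over the 12 libraries in a way that is given here as a description, without a test, since all points share their libraries and normalization. *Nrxn2* and *Nlgn2*, a presynaptic hub and a ligand of inhibitory synapses, had the highest Pearson correlation of log2 CPM of the 36 pairs over all 12 libraries, 0.92 (Spearman 0.91). It was 0.92 without KO-Nut3 RH6, 0.88 after the mean of each group was taken away, 0.97 over the 6 libraries up to RH8 and 0.73 over the 6 from RH9. Other pairs were higher within the 6, such as *Lrrtm1* and *Lrrtm2* at 0.99 in the first set, which holds KO-Nut3 RH6, and *Nrxn3* and *Cntnap2* at 0.90 in the second. *Nrxn2* and *Nlgn2* were both highest in WT-Veh RH5 and lowest in KO-Veh RH16. *Nlgn3* went with this pair at 0.73 with *Nrxn2* and 0.71 with *Nlgn2*, and at 0.73 and 0.67 without KO-Nut3 RH6.

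The excitatory ligands formed a second set that rested on 1 library. *Nlgn1* correlated at 0.87 with *Lrrtm1* and 0.84 with *Lrrtm2*, and the LRRTM genes at 0.85 with each other (Pearson, n = 12). Without KO-Nut3 RH6 these values were 0.33, 0.30 and 0.16 (n = 11). *Cntnap2*, highest in KO-Nut3 RH6, stood at -0.70 with *Lrrtm2*, and at -0.12 without that library. In the opposite way, *Cntnap2* and *Nrxn3* stood at 0.21 with that library and at 0.77 without it.

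**Figure D5:**
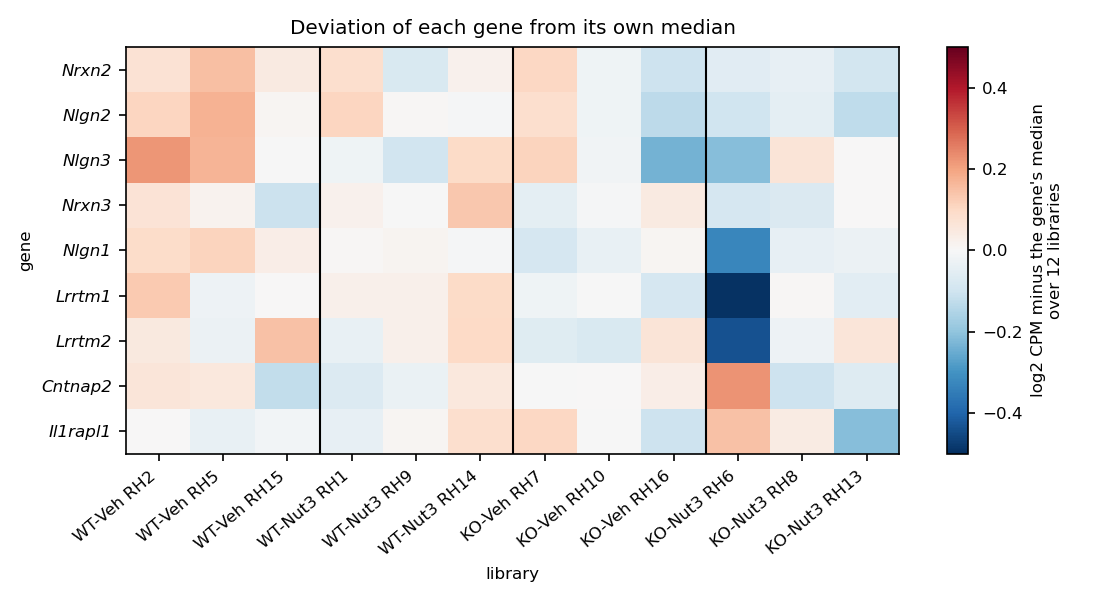
Log2 CPM of each gene (rows) minus its own median over the 12 libraries, by library (columns, with lines between groups); red is above and blue below the median, on a scale from -0.5 to 0.5. Nrxn2 and Nlgn2 lie on the same side of their medians in 10 of 12 libraries, and Nlgn3 lies there with both in 6 of 12, whereas Nlgn1, Lrrtm1 and Lrrtm2 share a low value in KO-Nut3 RH6.

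Among the 15337 other genes with a mean of at least 1 CPM, the gene most like each member over the 12 libraries was taken by Pearson correlation of log2 CPM. *Lrrtm1* had the closest match, *Hpca*, which encodes the neuronal calcium sensor hippocalcin, at 0.988 (0.927 without KO-Nut3 RH6). *Nlgn1* was nearest to *Arhgef28* at 0.964 (0.878) and *Lrrtm2* to *Sowaha* at 0.962 (0.813). *Nlgn2* was nearest to *Dcaf7* at 0.958 (0.954), *Nrxn2* to *Gnl1* at 0.935 (0.946) and *Nlgn3* to *Rcor3* at 0.920 (0.903). The matches of *Il1rapl1* with *Meis3* at 0.873 (0.878), *Cntnap2* with *Nxpe3* at 0.857 (0.676) and *Nrxn3* with *Pdk3* at 0.843 (0.835) were looser. A best match out of so many genes is high by its choice, and nothing about shared control follows from it.

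The 9 genes were set beside 66 other synaptic adhesion genes and partners in 6 lists. None of the 66 passed in any of the 7 comparisons, and at an unadjusted *P*-value under 0.05 there were 12 in KO-Veh against WT-Veh (7.20% of all genes), 9 in KO-Nut3 against WT-Nut3 (4.87%), 5 in KO-Nut3 against KO-Veh (7.60%) and 3 in WT-Nut3 against WT-Veh (3.17%). Over all 12 libraries 16 of the 66 had an unadjusted *P*-value under 0.05 for genotype (8.16% of all genes), 9 for treatment (7.29%) and 0 for the interaction (4.17%). The smallest adjusted *P*-value for genotype was that of *Lrrc4c*, which encodes the netrin-G ligand NGL-1, at 0.234, with a log2 fold change of -0.23 ± 0.047. *Lrrc4c* and the genes named in the next paragraph were picked out after their values were seen.

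Taken list by list, and beside 8.16% of all genes (8.88% without KO-Nut3 RH6), the counts for genotype were as follows. Of 17 genes of other adhesion families, such as teneurins, latrophilins, netrin-G ligands and SynCAMs, 9 had an unadjusted *P*-value under 0.05 for genotype, all with a log2 fold change below 0, and the median of the list was -0.14 (10 of 17 and -0.14 without KO-Nut3 RH6). Among them *Tenm4*, a teneurin, stood at -0.27 ± 0.058 and *Adgrl1*, a latrophilin that binds teneurins and neurexins, at -0.17 ± 0.048. The 12 receptor phosphatases of the LAR type and their ligands, among them partners of *Il1rapl1*, gave 4 of 12, all below 0, with a median of -0.11 (5 and -0.091 without KO-Nut3 RH6, the library in which 8 of the 12 were lowest). The 11 neuroligin inhibitors and cytoplasmic partners gave 1, *Dlg4*, the postsynaptic scaffold PSD-95, at -0.13 ± 0.048, with a list median of -0.054 (2 genes and -0.026 without KO-Nut3 RH6). The 12 other neurexin ligands gave 1 with a median of 0.0026 (4 and -0.047 without that library), the 12 contactins and other contactin-associated proteins gave 1 with a median of -0.030 (2 and -0.086), and the 2 alpha-catenin genes gave 0. The 9 genes described, for comparison, gave 2 of 9 and a median of -0.10 (-0.076 without that library).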

How the data were processed

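Hippocampal poly(A) RNA of 12 mice had been sequenced, 3 mice per group, and groups follow the labels. The authors mapped the reads to mm10 with STAR (version not given in the sources used here) and deposited raw read counts per gene. The labels give a single-read layout and the methods a paired-end one, and the counts do not show which applies. Unstranded counts were taken, since reads split nearly evenly between strands.

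TMM normalization was done in edgeR 4.0.16 under R 4.3.3. Genes needed a sum above 20 counts, which left 22592, and were tested two-sided with the quasi-likelihood test of edgeR, with Benjamini-Hochberg adjusted *P*-values under 0.05 over all of them. Each of 4 comparisons of 2 groups was fitted on its 6 libraries. Genotype, treatment and their interaction were fitted on all 12. The SE of a log2 fold change was obtained as its absolute value over the root of *F*, and log2 CPM used a prior count of 1. Each mouse gave 1 library, with a median of 18092135 reads on genes per library. The 3 mice per group limit the precision, and depth may do so for *Il1rapl1*, with 222 to 294 reads per library. The alternatives were DESeq2 1.42.0, its size factors (RLE), all genes with at least 1 count, the sum of the strand counts, the number block as a term, 1 fit of all 12 libraries and leaving out each library. Locations came from GENCODE M21 and promoters from RefSeq.

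No measured value enters the rule for the 9 genes, but they, the 6 lists of other adhesion genes and the 10 marker lists were drawn up with earlier results of these data known. Besides all 9 genes, the rule for names took list genes past the threshold, the most abundant gene of each marker list, the gene most correlated with each of the 9, and *Fmr1*.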

Additional observations from a re-analysis of the deposited data

Results flagged for a closer look

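Within the 6 libraries of each genotype and of each treatment, the highest and lowest values of the 9 genes were examined by the gap to the nearest other library divided by the range (Dixon's ratio, with 0.625 as the 95% limit for 6 values). Of 36 sets, 8 passed, and chance passes about 1 in 20 of independent sets. Each library sits in a genotype set and in a treatment set, so the sets share values and the count cannot be read against that rate. KO-Nut3 RH6 accounted for 6 of the 8, with its *Nlgn1*, *Lrrtm1* and *Lrrtm2* values each counted in both. Its *Nlgn1* level of 63.7 CPM gave 0.693 among the knockout libraries, where the others lay between 75.2 and 80.3 CPM, and 0.818 among the Nutlin-3 libraries, where the others lay between 77.5 and 80.6 CPM. Its *Lrrtm1* level of 75.3 CPM gave 0.797 beside 100.2 to 107 CPM in the other knockout libraries and 0.707 beside 102 to 113 CPM in the other Nutlin-3 libraries. Its *Lrrtm2* level of 47.4 CPM gave 0.678 beside 60.8 to 67.1 CPM and 0.71 beside 62.5 to 68.6 CPM. The same library had the lowest CA pyramidal marker sum and the highest thalamus marker sum of the 12, and their part in these values was not tested.

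The other sets concerned single genes in other libraries. KO-Veh RH7 was high for *Nrxn2* among the knockout libraries, with 373 CPM beside 323 to 341 CPM (ratio 0.637). WT-Veh RH15 was low for *Cntnap2* among the vehicle libraries, with 123 CPM beside 134 to 139.9 CPM (ratio 0.652).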

How the results depend on the processing

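None of the 9 genes passed the threshold in any comparison under any of the alternatives, neither with DESeq2 nor with any library left out. Over 891 refits of their 63 log2 fold changes, the smallest adjusted *P* was 0.210. Of 351 refits that kept every library, 12 changed sign, all at values near 0. With the strand counts summed these were *Nrxn3* in KO-Veh against WT-Veh (-0.0026) and in Nutlin-3 against vehicle (-0.0070), *Cntnap2* in Nutlin-3 against vehicle (0.0018) and *Il1rapl1* in knockout against wild type (0.0013, and 0.0013 with all genes of at least 1 count). With the number block as a term they were *Cntnap2* in KO-Nut3 against KO-Veh (-0.010), WT-Nut3 against WT-Veh (0.0077), Nutlin-3 against vehicle (0.00030) and the interaction (-0.011), and *Nrxn2* (-0.041), *Nlgn1* (0.0087) and *Lrrtm2* (0.021) in the interaction.

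Leaving out 1 library at a time changed the sign in 63 of 540 refits, for 28 of the 63 values. Another 28 kept their sign and moved by over 1.5 times under at least 1 refit, and 7 did neither, among them knockout against wild type for *Nlgn1*, *Nlgn2* and *Nrxn2*. The ranges in KO-Veh against WT-Veh were -0.037 to 0.042 for *Nrxn3*, -0.038 to 0.045 for *Cntnap2* and -0.025 to 0.073 for *Il1rapl1*, and in KO-Nut3 against WT-Nut3 -0.097 to 0.039 for *Nlgn3*, -0.071 to 0.10 for *Cntnap2* and -0.099 to 0.075 for *Il1rapl1*. In KO-Nut3 against KO-Veh they were -0.094 to 0.075 for *Nlgn3*, -0.098 to 0.069 for *Cntnap2*, -0.083 to 0.094 for *Il1rapl1*, -0.23 to 0.010 for *Lrrtm1* and -0.19 to 0.040 for *Lrrtm2*, and in WT-Nut3 against WT-Veh -0.069 to 0.017 for *Cntnap2*, -0.00015 to 0.067 for *Il1rapl1*, -0.017 to 0.060 for *Lrrtm1* and -0.067 to 0.023 for *Lrrtm2*. Over all libraries they were -0.026 to 0.053 for *Cntnap2* and -0.036 to 0.045 for *Il1rapl1* by genotype, and -0.021 to 0.025 for *Nrxn3*, -0.050 to 0.026 for *Cntnap2*, -0.016 to 0.060 for *Il1rapl1*, -0.091 to 0.012 for *Lrrtm1* and -0.10 to 0.0037 for *Lrrtm2* by treatment. In the interaction they were -0.025 to 0.078 for *Nrxn2*, -0.067 to 0.067 for *Nlgn1*, -0.062 to 0.044 for *Nlgn2*, -0.090 to 0.089 for *Cntnap2*, -0.12 to 0.060 for *Il1rapl1* and -0.17 to 0.062 for *Lrrtm2*.

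The count of all genes past the threshold, which sets the background, depended on the setting far more, and the cause was not tested. In KO-Veh against WT-Veh it was 4, with 22 by DESeq2, 272 with all genes of at least 1 count, 21 with the number block, 1 in a fit of all 12 libraries and 2 to 11 without 1 library. In KO-Nut3 against WT-Nut3 it was 1, with 7 by DESeq2, 38 with all genes and 0 to 7 without 1 library. In KO-Nut3 against KO-Veh it was 45, with 245 by DESeq2, 544 with all genes, 20 with the number block, 0 in a fit of all 12 libraries and 6 to 266 without 1 library. In WT-Nut3 against WT-Veh it was 0, with 249 with all genes, 11 with the number block and 0 to 1 without 1 library. By genotype over all libraries it was 1, with 43 by DESeq2, 239 with all genes, 10 with the number block and 1 to 10 without 1 library, and by treatment 0, with 79, 539, 3 and 0 to 19. For the interaction it was 0, with 1 by DESeq2, 291 with all genes and 0 to 1 without 1 library.

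No paired analysis was done, because every RH number occurs once and the labels used here give no pairs. After adjustment over all genes, the differences of *Nlgn1* and *Nlgn2* between genotypes over all 12 libraries, whose 95% intervals left out 0, did not pass. Bulk counts do not separate cell types, protein levels were not measured, and counts per gene do not resolve the splice forms in which neurexins differ.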
